A study of Mus musculus with 8 samples.

Results

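Protein kinase CK1, protein kinase CK2 and glycogen synthase kinase 3 (GSK3) can place phosphate on the cytoplasmic tail of E-cadherin, and their transcripts were read here in late embryonic mouse hearts. The members were all probe sets annotated to a single gene among 10 listed kinase genes. They came to 36 of the 45101 probe sets of an Affymetrix Mouse430 array, for 9 of the 10 genes. No probe set is annotated to *Csnk2b*, the regulatory subunit of CK2, without other genes, so CK2 is described by its catalytic subunits. Choosing the genes used no measured value of these hearts, but the choice was made with earlier results of these arrays known.

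Whole hearts came from 5 wild-type embryos and 3 embryos homozygous for 2lox (2lox/2lox), taken at E18.5 shortly before birth, and every heart had an array of its own. Sex is not given by the labels. *Kdm1a* (*Aof2*) encodes the lysine demethylase Lsd1, and 2lox names its floxed allele before any recombination. This allele carries point mutations in the tower domain and acts as a hypomorph, although the GEO labels also call it a knock-out, and it is present in every cell of the embryo. No Cre recombinase was used, so no cell type was targeted. Values are log2 expression levels, and array medians lay between 5.03 and 5.10. The brighter *Kdm1a* probe set read 9.44 to 9.55 with the 2lox alleles and 10.26 to 10.36 in wild-type, a log2 difference (2lox/2lox minus wild-type, here and below) of -0.81 (adjusted p of 5.15e-04, limma). The 7 cardiomyocyte markers had a mean log2 level of 13.86 to 14.00 in all 8 hearts. In whole hearts, fewer cells of a type and less RNA per cell cannot be told apart.

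CK1, CK2 and GSK3 are constitutively active serine/threonine kinases that often work in sequence, since GSK3 prefers substrates that another kinase has already phosphorylated. In the canonical Wnt pathway, CK1α primes β-catenin and GSK3 then marks it for destruction, while at the cell membrane CK1γ and GSK3 phosphorylate the receptor Lrp6. CK2 acts on acidic stretches of many proteins, and E-cadherin holds such a stretch where β-catenin binds. Phosphorylation there by CK2 and GSK3 strengthens that binding. Mice that lack *Gsk3b* have heart malformations that include ventricular septal defects. The array reports transcript levels only and says nothing about kinase activity.

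None of the 36 kinase probe sets differed between the genotypes at an adjusted p of 0.05. Of all probe sets, 0.0798% did (limma, two-sided, with p-values adjusted by Benjamini-Hochberg across the array). At an unadjusted p under 0.05 there were 7 of 36, or 19.4%, against 10.9% of all probe sets. This count was 14 without 2lox/2lox heart 3 (15.6% of all probe sets), 4 without heart 1 (6.92%), 1 with a measure of RNA integrity as covariate (3.51%) and 13 with a sex score as covariate (12.3%). The smallest adjusted p of a kinase probe set was 0.219, for *Gsk3b*. Log2 differences ran from -0.29 to 0.56 with a median of 0.09, beside a median of -0.0036 over all probe sets. The values were above 0 in 30 of 36, or 83.3%, against 48.5% of all probe sets, and in 19 of 36 without 2lox/2lox hearts 1 and 2. Several of these probe sets read the same transcript, so the 36 are not separate observations.

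The spread between hearts set narrow limits on most of these values. SEs ran from 0.06 to 0.15 with a median of 0.08, and the SD among the wild-type hearts was 0.10 at the median. The 95% interval of the fold change lay wholly within 1.4-fold in either direction, the fold named in the study's methods, for 32 of 36 kinase probe sets and 91.5% of all probe sets. The 4 exceptions were 2 probe sets of *Csnk1a1*, 1 of *Csnk1g3* and 1 of *Gsk3b*. All 13 CK2 probe sets lay within that limit.

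**Figure D1:**
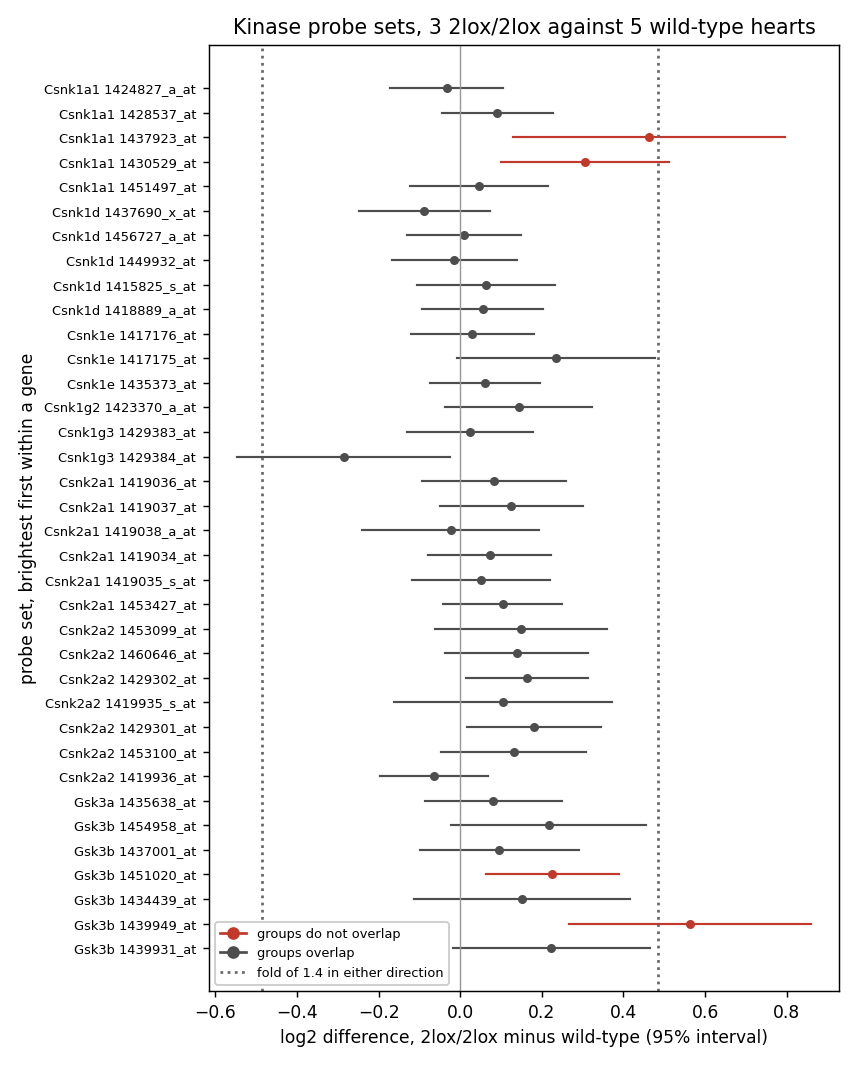
Log2 difference of each of the 36 kinase probe sets (2lox/2lox minus wild-type), with points for the estimate and lines for its 95% interval from limma. Dotted lines mark a fold of 1.4 in either direction, red marks the 4 probe sets whose groups do not overlap, and the largest value is 0.56 for *Gsk3b* 1439949_at.

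*Gsk3b*, the GSK3 isoform best known from Wnt signalling, was read by 6 probe sets and all had a log2 difference above 0, from 0.10 to 0.56 with a median of 0.22. In all 6 the highest heart was 2lox/2lox heart 1 or 2 and the lowest was a wild-type heart. The brightest, 1454958_at in the naming of the array, had log2 levels of 9.56, 9.30 and 9.17 in 2lox/2lox hearts 1, 2 and 3 and of 9.30, 8.96, 8.98, 9.12 and 9.26 in wild-type hearts 1 to 5. The groups overlap, since 2lox/2lox heart 3 lies below wild-type hearts 1 and 5. Its log2 difference was 0.22 (SE 0.11, adjusted p of 0.504), with a 95% interval from -0.02 to 0.46. It was 0.11 without 2lox/2lox heart 1 and 0.10 with the measure of RNA integrity as covariate.

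Every 2lox/2lox heart lay above the wild-type range in 4 of the 36 kinase probe sets, or 11.1%, against 3.41% of all probe sets, and 2 of the 4 belong to *Gsk3b*. No kinase probe set had every 2lox/2lox heart below, as 2.71% of all did. The probe set 1451020_at read 8.70, 8.76 and 8.61 in the 2lox/2lox hearts and 8.58, 8.43, 8.50, 8.30 and 8.52 in the wild-type hearts. Its lowest 2lox/2lox heart stood just above the highest wild-type heart. The log2 difference was 0.23 (SE 0.07, adjusted p of 0.317), a fold of 1.17 with a 95% interval from 1.04 to 1.31.

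In 1439949_at the 2lox/2lox hearts read 5.22, 5.70 and 5.06, while the wild-type hearts read 4.86, 4.75, 4.72, 4.91 and 4.58. This is a dim probe set, with a wild-type mean of 4.76 ± 0.13 (SD, n = 5) where the lower quartile of all values is 4.21, and 2lox/2lox heart 2 stands apart from the other two. It had the largest log2 difference of the 36, 0.56 (SE 0.13, adjusted p of 0.219), and its 95% interval reached from 0.27 to 0.86. Without 2lox/2lox heart 3 the same probe set passed, with a log2 difference of 0.70 and an adjusted p of 0.0377. That fit left 2 2lox/2lox hearts, and 797 probe sets of the whole array, or 1.77%, passed in it against 36 with all hearts.

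The remaining *Gsk3b* probe sets overlapped between the groups. The values of 1437001_at were 9.00, 9.07 and 8.81 with the 2lox alleles against a wild-type range from 8.67 to 8.98 (log2 difference 0.10, 95% interval -0.10 to 0.29). In 1434439_at, which the annotation ties to the same source sequence as the brightest probe set, the log2 difference was 0.15. The dimmest, 1439931_at, had 0.22 around a wild-type mean of 4.21, at the lower quartile. Taking the mean of all 6 probe sets in each heart gave 7.24, 7.29 and 7.01 in 2lox/2lox hearts 1, 2 and 3, above a wild-type range from 6.86 to 7.00. These groups do not overlap, as in 6.10% of all genes treated in this way, and neither do those of *Csnk1a1*. The log2 difference of the gene mean was 0.25 (SE 0.07, adjusted p of 0.293 over all genes), with a 95% interval from 0.09 to 0.40. None of the 9 kinase genes passed by this mean, beside 0.181% of all genes.

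*Gsk3a*, the GSK3 isoform known for its part in glycogen metabolism, was read by 1 probe set. Its log2 levels were 9.21, 9.14 and 8.89 in 2lox/2lox hearts 1, 2 and 3 and 9.03, 8.93, 9.01, 9.00 and 9.02 in the wild-type hearts. Hearts 1 and 2 of the 2lox/2lox group had the highest values of all 8 hearts and heart 3 had the lowest. The log2 difference was 0.08 (SE 0.08, adjusted p of 0.771), and a 95% interval from -0.09 to 0.25 covers 0. Within each array the brightest *Gsk3b* probe set minus the *Gsk3a* probe set was 0.26 ± 0.09 (SD, n = 3) in 2lox/2lox hearts and 0.13 ± 0.13 (SD, n = 5) in wild-type hearts. These differences overlap between the groups.

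**Figure D2:**
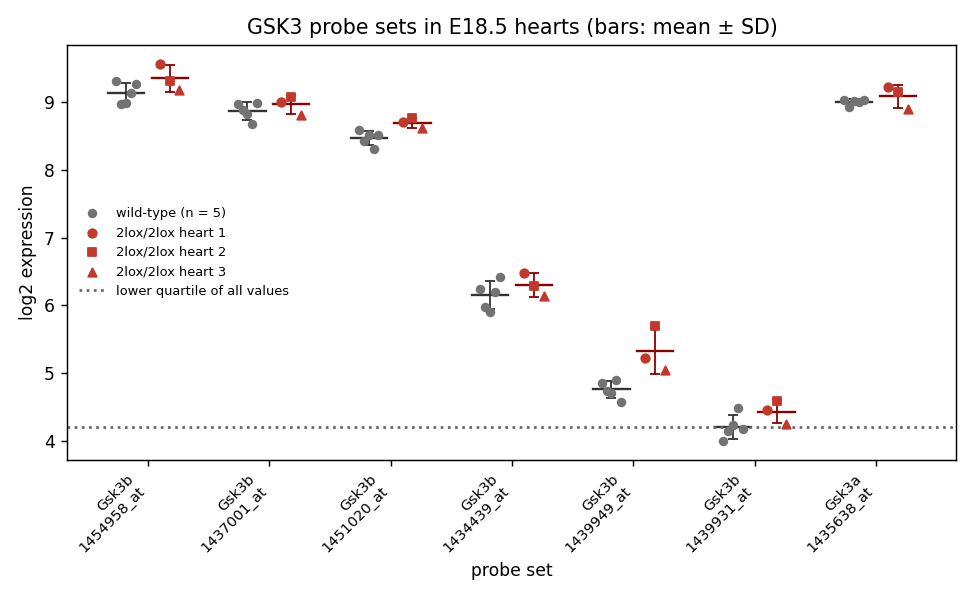
Log2 expression of the 6 *Gsk3b* probe sets and the *Gsk3a* probe set in each heart. Grey points are the 5 wild-type hearts, red symbols the 3 2lox/2lox hearts (circle, square and triangle for hearts 1, 2 and 3), bars the mean ± SD, and the dotted line the lower quartile of all values, 4.21. In 1439949_at all 2lox/2lox hearts, from 5.06 to 5.70, lie above the wild-type hearts.

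CK1 was represented by 16 probe sets of 5 genes, of which 12 had a log2 difference above 0, with a median of 0.05. *Csnk1a1*, which encodes CK1α, the priming kinase of β-catenin, had 5 probe sets with log2 differences from -0.03 to 0.46. Its brightest, 1424827_a_at, read 11.82, 11.97 and 11.96 in the 2lox/2lox hearts and 12.00, 11.95, 11.85, 11.95 and 11.99 in the wild-type hearts. These levels overlap, and the log2 difference was -0.03 (95% interval -0.17 to 0.10). The next, 1428537_at, had 0.09 (95% interval -0.05 to 0.23).

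In 2 dimmer probe sets of *Csnk1a1* every 2lox/2lox heart lay above the wild-type hearts. One of them, 1437923_at, read 6.39, 7.04 and 6.22 in the 2lox/2lox hearts and 6.09, 6.06, 6.04, 6.10 and 6.15 in the wild-type hearts. Most of its mean difference sat in 2lox/2lox heart 2, and the SD was 0.43 among 2lox/2lox hearts against 0.04 among wild-type hearts. Its log2 difference was 0.46 (SE 0.15, adjusted p of 0.317), and it was 0.22 without 2lox/2lox heart 2. The other, 1430529_at, read 6.04, 6.35 and 6.19 against 5.74, 5.89, 6.04, 5.99 and 5.77. Heart 1 of the 2lox/2lox group and wild-type heart 3 are nearly level there (log2 difference 0.31, SE 0.09, adjusted p of 0.296). The dimmest, 1451497_at, which shares its source sequence with the brightest, had 0.05. The mean of the 5 *Csnk1a1* probe sets lay between 7.98 and 8.21 with the 2lox alleles against 7.85 to 7.93 in wild-type. Its log2 difference was 0.17 (SE 0.06, adjusted p of 0.351). This mean gives dim and bright probe sets equal weight, and the brightest had -0.03.

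Whether probe sets of 1 gene respond unequally was tested on their difference within each heart, over all 16764 pairs of a probe set with the brightest of its gene. Of these pairs 0.0358% passed an adjusted p of 0.05 and 12.5% had an unadjusted p under 0.05. Of the 27 pairs of the kinase genes, none passed and 3 had an unadjusted p under 0.05. These were 1437923_at and 1430529_at of *Csnk1a1*, with log2 differences 0.50 and 0.34 above that of the brightest (adjusted p of 0.277 and 0.290), and 1429384_at of *Csnk1g3*, 0.31 below it (adjusted p of 0.311). Without 2lox/2lox heart 3 the pairs of 1437923_at and 1429384_at passed (adjusted p of 0.0207 and 0.0368), in a fit where 754 of all pairs, or 4.50%, did. Where these probe sets lie on the transcripts was not analysed here.

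*Csnk1g3* encodes a CK1γ, the lipid-anchored form of CK1 at the cell membrane. Its probe set 1429384_at had the lowest log2 difference of the 36, -0.29 (SE 0.12, adjusted p of 0.417). The 2lox/2lox hearts read 7.78, 8.17 and 8.30 and the wild-type hearts 8.56, 8.30, 8.22, 8.36 and 8.41. Heart 1 of the 2lox/2lox group is far below the rest, and without it the log2 difference was -0.13. The brighter probe set, tied to the same source sequence, read 8.51 to 8.65 with the 2lox alleles against a wild-type range from 8.39 to 8.65 (log2 difference 0.02). *Csnk1g2*, another CK1γ, read 8.72, 8.61 and 8.43 against 8.44, 8.29, 8.54, 8.45 and 8.50. Its hearts 1 and 2 of the 2lox/2lox group were highest and heart 3 lay among the wild-type hearts (log2 difference 0.14, SE 0.08, adjusted p of 0.576).

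*Csnk1d* and *Csnk1e* encode CK1δ and CK1ε, which phosphorylate the Period proteins of the circadian clock and Dishevelled in Wnt signalling. The 5 probe sets of *Csnk1d* had log2 differences from -0.09 to 0.06, all with intervals within 1.4-fold. Its gene mean had a log2 difference of 0.01 (95% interval -0.11 to 0.12), the value nearest to 0 among the 9 genes. Of the 3 *Csnk1e* probe sets, 1417175_at read 9.37, 9.18 and 8.90 in the 2lox/2lox hearts and 9.13, 8.94, 8.92, 8.80 and 8.81 in the wild-type hearts. Its log2 difference was 0.23 (SE 0.11, adjusted p of 0.474), with 2lox/2lox heart 3 inside the wild-type range. The brightest *Csnk1e* probe set, from the same source sequence, had 0.03 and the dimmest 0.06.

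**Figure D3:**
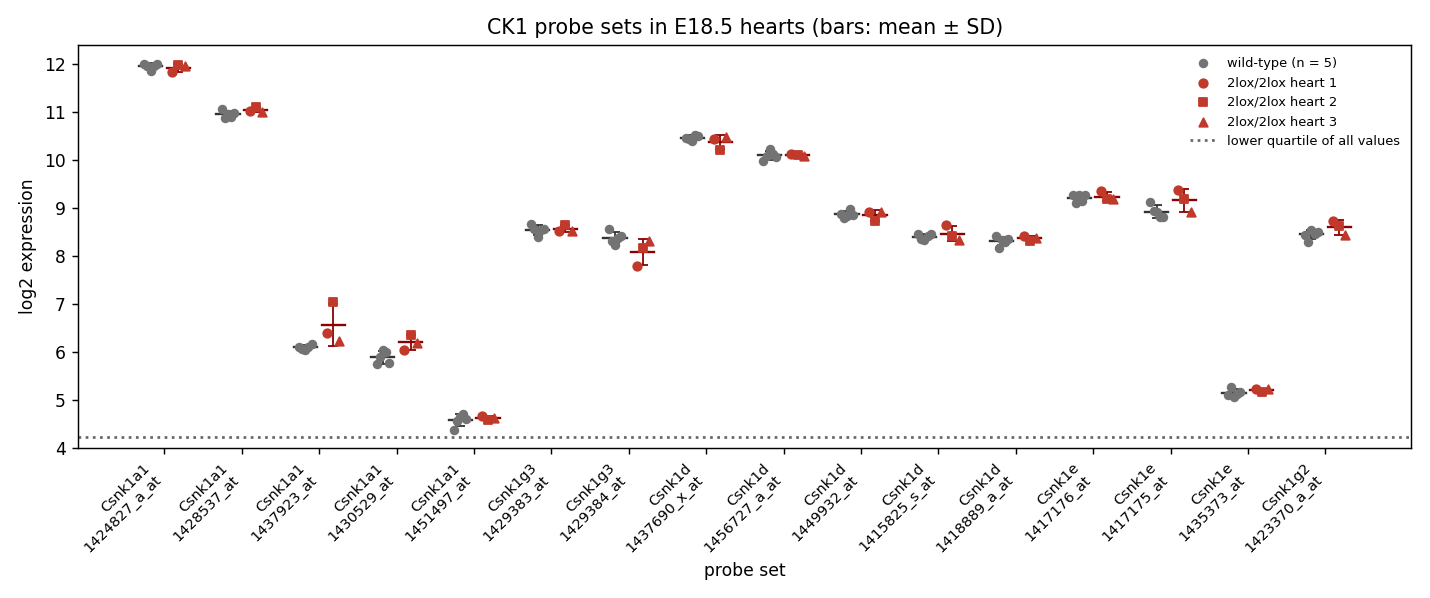
Log2 expression of the 16 CK1 probe sets in each heart. Grey points are the 5 wild-type hearts, red symbols the 3 2lox/2lox hearts (circle, square and triangle for hearts 1, 2 and 3), bars the mean ± SD, and the dotted line the lower quartile of all values, 4.21. In *Csnk1a1* 1437923_at heart 2 reaches 7.04, and in *Csnk1g3* 1429384_at heart 1 reads 7.78.

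CK2 was read by 13 probe sets of its catalytic subunits, α (*Csnk2a1*) and α′ (*Csnk2a2*). Of these, 11 had a log2 difference above 0, with a median of 0.10 and a range from -0.06 to 0.18, and the groups overlapped in all 13. The brightest *Csnk2a1* probe set, 1419036_at, read 9.25, 9.15 and 9.00 in the 2lox/2lox hearts and 9.09, 8.92, 9.02, 9.21 and 9.02 in the wild-type hearts. The 2lox/2lox values lie within or just above the wild-type range (log2 difference 0.08, SE 0.08, adjusted p of 0.782). Over the 6 *Csnk2a1* probe sets the values ran from -0.02 to 0.13, and the gene mean had 0.07 (95% interval -0.06 to 0.20).

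*Csnk2a2* had 7 probe sets, 4 of them tied to the same source sequence, and 6 had a log2 difference above 0. The brightest, 1453099_at, read 9.24, 9.34 and 9.00 in the 2lox/2lox hearts and 9.19, 8.89, 9.14, 8.95 and 9.06 in the wild-type hearts. Only hearts 1 and 2 of the 2lox/2lox group exceeded all wild-type hearts there (log2 difference 0.15, SE 0.09, adjusted p of 0.630). The value was 0.075 without 2lox/2lox heart 2 and 0.24 without heart 3. The 2 probe sets with an unadjusted p under 0.05, 1429301_at and 1429302_at, had 0.18 (adjusted p of 0.414) and 0.16 (adjusted p of 0.419). They come from the same source sequence as the brightest. The 1 *Csnk2a2* probe set with a value under 0, 1419936_at, lay below the lower quartile of all values in all 8 hearts. Whether its signal rose above background was not tested. The gene mean of *Csnk2a2* had 0.11 (95% interval -0.03 to 0.26). The balance between the subunits, *Csnk2a1* minus *Csnk2a2* in the brightest probe sets, was -0.06 ± 0.12 (SD, n = 3) in 2lox/2lox hearts and 0.0035 ± 0.15 (SD, n = 5) in wild-type hearts.

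**Figure D4:**
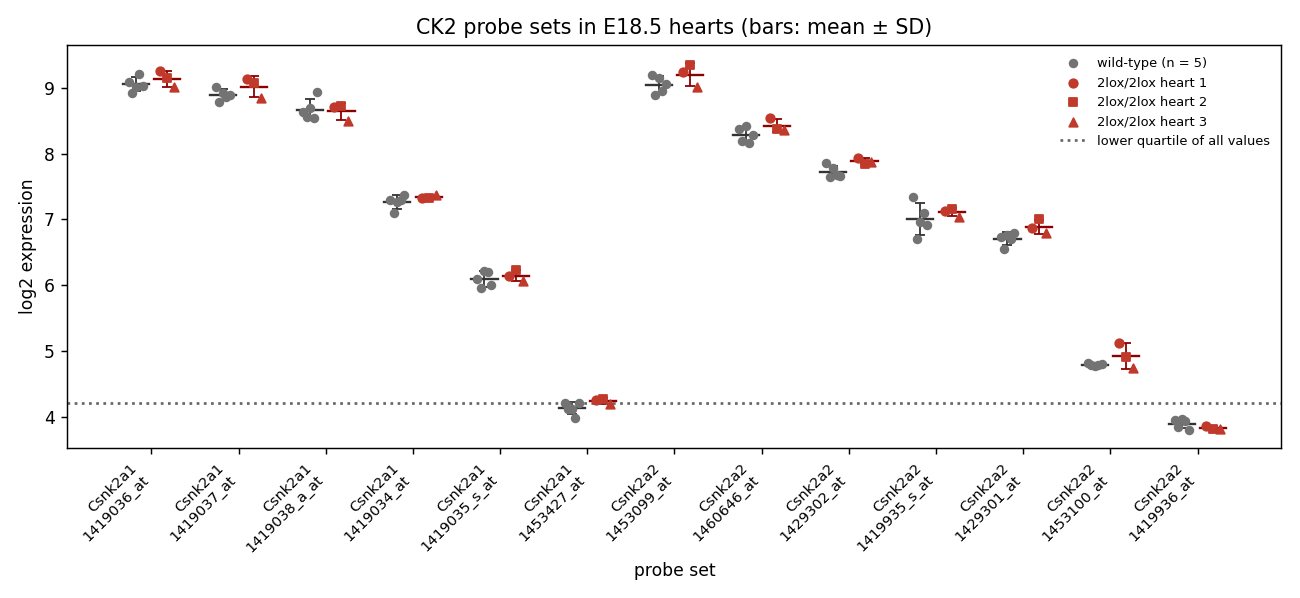
Log2 expression of the 13 CK2 probe sets in each heart. Grey points are the 5 wild-type hearts, red symbols the 3 2lox/2lox hearts (circle, square and triangle for hearts 1, 2 and 3), bars the mean ± SD, and the dotted line the lower quartile of all values, 4.21. The groups overlap in every probe set, and the largest log2 difference is 0.18.

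The kinase values did not vary alike in the 3 2lox/2lox hearts. Taking each of the 36 probe sets relative to its wild-type mean, the median was 0.15 in 2lox/2lox heart 1, 0.13 in heart 2 and 0.01 in heart 3, while in the wild-type hearts it lay between -0.07 and 0.05. Heart 1 exceeded every wild-type heart in 21 of the 36, against 23.6% of all probe sets. In heart 2 this was so in 17, against 19.1%, and in heart 3 in 5, against 15.2%. The highest value of the 8 hearts was in heart 1 for 13 of the 36 (36.1%), in heart 2 for 11 (30.6%) and in heart 3 for 0, against 16.8%, 13.3% and 9.56% of all probe sets.

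A measure of RNA integrity, in which a higher value stands for less intact RNA, was also higher in 2lox/2lox hearts 1 and 2 than in heart 3. It is the control signal near the 3′ end of a transcript minus that near the 5′ end, averaged over *Actb* and *Gapdh*. It was 0.52 in 2lox/2lox heart 1 and 0.50 in heart 2, and 0.33 in heart 3, where the wild-type hearts had 0.32 to 0.38. In wild-type hearts 1 to 5 the measure was 0.33, 0.34, 0.38, 0.32 and 0.34. Their kinase medians, in the same order, were 0.05, -0.07, 0.005, -0.001 and 0.02. This wild-type range is too narrow to show whether the kinase values follow the measure. With this measure as a covariate the kinase median was 0.03 in place of 0.09, and 22 of 36 probe sets were above 0. The direction of 14 of the 36 turned. Without 2lox/2lox hearts 1 and 2 the median was 0.01, with 19 of 36 above 0. *Xist*, transcribed in females, read 10.88 in heart 3 of the 2lox/2lox group, 10.59 in wild-type heart 2 and at most 4.94 in the other hearts. With a sex score as covariate the kinase median was 0.11 and none of the 36 passed. The part of RNA integrity or of sex in the difference between the 2lox/2lox hearts was not tested.

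**Figure D5:**
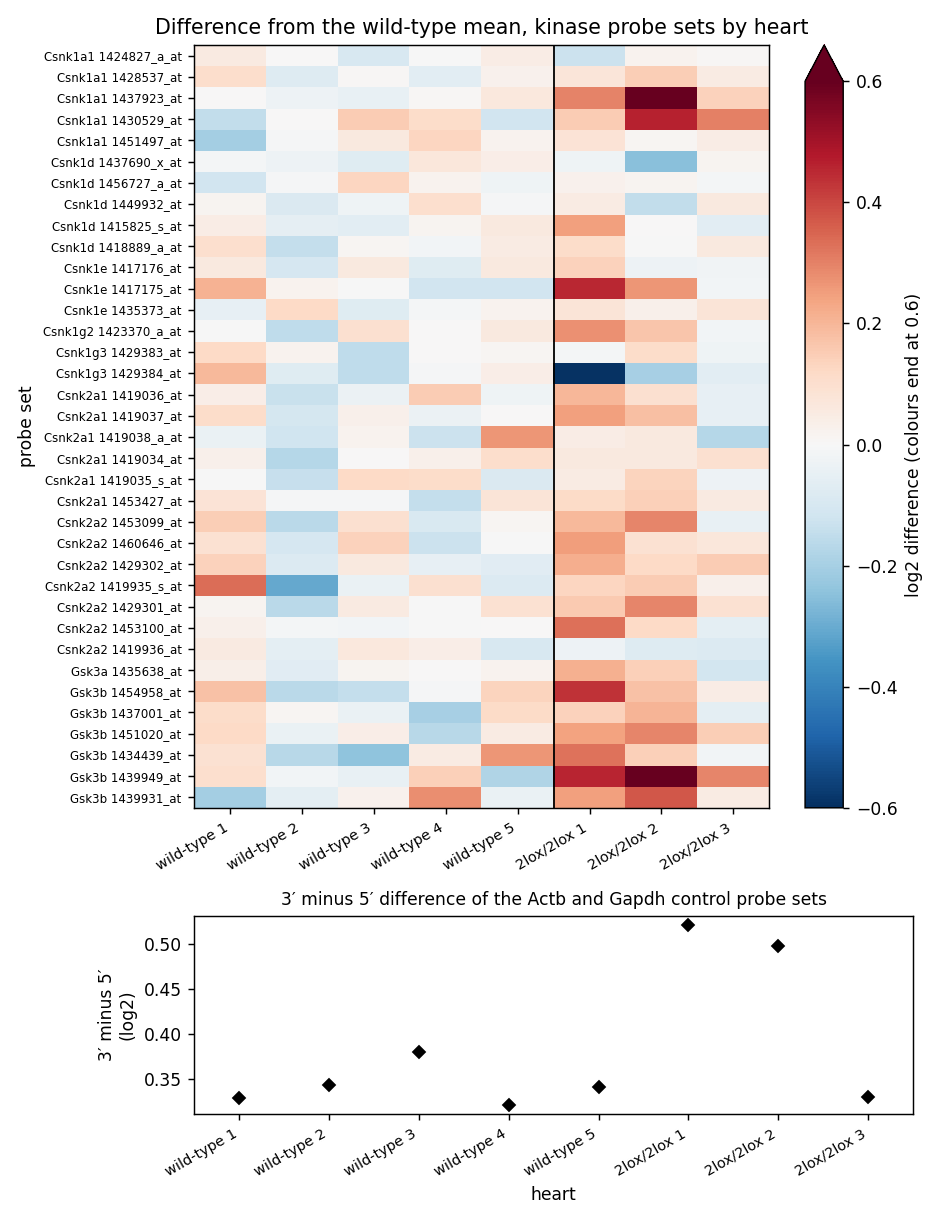
Log2 difference of each kinase probe set from its wild-type mean in each heart (upper panel, red above and blue below, colours ending at 0.6 in either direction) and the 3′ minus 5′ signal averaged over the *Actb* and *Gapdh* controls (lower panel, log2). Red fills more of the columns of 2lox/2lox hearts 1 and 2, whose control differences are 0.52 and 0.50, than of heart 3, with 0.33.

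The macrophage and skeletal muscle markers were on average above the wild-type range in every 2lox/2lox heart. The mean log2 level of 6 macrophage markers was 7.32, 7.49 and 7.60 in 2lox/2lox hearts 1, 2 and 3 against 6.93 to 7.24 in wild-type hearts, and 1 of the 6, *Cybb*, passed the test. That of 4 skeletal muscle markers was 10.02, 9.94 and 9.89 against 8.92 to 9.28, and 1 of the 4, *Tnni2*, passed. No listed marker of the cardiomyocyte, endothelial, fibroblast, epicardial, erythroid, epithelial, thymic or neural lists passed. Both marker groups were above the wild-type range in heart 3 as well, where the kinase median was 0.01. Their part in the kinase values was not tested.

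The partners of these kinases were read from lists of 67 further genes, 63 of them with a probe set of their own. None of the 63 passed the test in its brightest probe set, beside 0.148% of the brightest probe sets of all genes. Before adjustment 8 were higher and 2 lower at p under 0.05, together 15.9% against 10.2% of all genes, and 40 had a value above 0, or 63.5% against 48.0%. In 7 of them, or 11.1%, every 2lox/2lox heart lay above the wild-type hearts, against 3.16%. *Cdh1*, which encodes E-cadherin, had log2 levels of 3.68, 3.78 and 3.72 in 2lox/2lox hearts 1, 2 and 3, against a wild-type range from 3.63 to 3.72. All 8 values lie below the lower quartile of all values, and whether the *Cdh1* signal rose above background was not tested (log2 difference 0.05, 95% interval -0.07 to 0.17). *Ctnnb1*, the β-catenin gene, read 12.93 to 12.96 against 12.85 to 13.05 in its brightest probe set (log2 difference 0.01, adjusted p of 0.986). Its next probe set had -0.05 (adjusted p of 0.881) and the dimmest -0.33 (adjusted p of 0.390). The dimmest read 9.42, 9.60 and 10.11 in 2lox/2lox hearts 1, 2 and 3 beside a wild-type range from 9.96 to 10.11. Hearts 1 and 2 were the low ones there.

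Of the cadherin and catenin genes, *Ctnnd1*, the p120-catenin gene, had 0.30 (adjusted p of 0.219) in its brightest probe set. That of *Ctnna1*, the α-catenin gene, had 0.15 (adjusted p of 0.401). In both, every 2lox/2lox heart lay above the wild-type hearts. Other *Ctnna1* probe sets had 0.44 and 0.20, with no overlap, and -0.07, with overlap. The groups overlapped in the other *Ctnnd1* probe sets, which had 0.27 and 0.23. The brightest *Ctnnd1* probe set passed without 2lox/2lox heart 3 (adjusted p of 0.0456), when 1.32% of the brightest probe sets of all genes did. Among 9 genes of the β-catenin destruction complex, *Ppp2r5d*, a regulatory subunit of phosphatase 2A, had 0.14 (adjusted p of 0.353), and *Btrc*, the ubiquitin ligase subunit that recognizes phosphorylated β-catenin, had 0.18 (adjusted p of 0.427).

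Of 11 measured regulators of GSK3, *Akt1*, which inhibits GSK3 by phosphorylation, had a log2 difference of 0.22 (adjusted p of 0.406). *Dvl2*, a Dishevelled gene that acts upstream of GSK3 in Wnt signalling, had -0.18 (adjusted p of 0.415), with all 2lox/2lox hearts below the wild-type hearts. Among 7 catalytic subunits of phosphatases, which remove phosphate from serine and threonine, *Ppp3cb* had 0.09 (adjusted p of 0.580) and *Ppp1ca* -0.11 (adjusted p of 0.645). The median of these phosphatase genes was -0.02.

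Of 19 measured substrates, *Gata4*, a cardiac transcription factor that GSK3 can phosphorylate, had a log2 difference of 0.36 (adjusted p of 0.228), and its groups did not overlap. Its other probe set had -0.09 (adjusted p of 0.871). The brighter one also passed without 2lox/2lox heart 3 (adjusted p of 0.0397). *Lrp6*, the Wnt co-receptor, had 0.19 (adjusted p of 0.494). Of 10 other kinases that act on cadherins or catenins, *Prkcd* had 0.19 (adjusted p of 0.390) and *Prkd1* -0.15 (adjusted p of 0.447). *Csnk1g1*, the CK1γ gene outside the 10 kinases, had 0.10 (adjusted p of 0.666). None of the 9 kinase genes lies on chromosome 4, where *Kdm1a* is (GRCm38.p6).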

How the data were processed

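RNA from 3 2lox/2lox and 5 wild-type hearts at E18.5 was read on Affymetrix arrays, 1 per heart. The authors deposited log2 values, 1 column for each array, already normalized. The submitters' processing notes name limma, while how probes were summarized and normalized is not stated there, so low values rest on an unknown background treatment. Precision is limited by the number of arrays. Hearts were grouped by their genotype label. The paper describes the embryos as littermates, but the litter of each heart was not known and is not part of the fit. The p-values set the genotype difference against the spread between these hearts, with variances moderated by limma across the probe sets.

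Genotypes were compared in limma 3.58.1 (lmFit, eBayes; R 4.3.3), and two-sided p-values were adjusted by Benjamini-Hochberg across all 45101 probe sets at a threshold of 0.05, as in the paper's methods. The same fit was made for the mean of all probe sets of each of 18194 genes and for 16764 within-gene differences from the brightest probe set. A probe set was used for a gene where the platform annotation gives that gene alone (34958 probe sets), with symbols updated through gene identifiers to a RefSeq table (GRCm38.p6). Other genes are represented by their brightest probe set. The rule for names covered all kinase probe sets, of which those not named are given by counts and ranges, *Kdm1a*, *Cdh1*, *Ctnnb1* and, of each gene list, the members past the threshold and otherwise up to 2 with the smallest p. Other probe sets of these genes and the markers *Cybb*, *Tnni2* and *Xist* were named after their values were seen. The members and lists were chosen with earlier results of these data known. The scripts were tested on simulated data. Alternatives were other variance models, normalizations, filters, covariates and array weights, a replicate block, and each heart left out in turn. Leaving out 2lox/2lox hearts 1 and 2 together, and alternatives for kinase probe sets other than the brightest of a gene, were added after the data were examined.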

Additional observations from a re-analysis of the deposited data

How the results depend on the processing

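No kinase probe set passed under an intensity trend, robust moderation, quantile normalization, median centring, array weights, a filter on dim probe sets, either covariate, the replicate block or the further fold of 1.4. With each heart left out in turn, 0 to 1 kinase probe sets, 0 to 2 probe set pairs and 0 to 2 genes of the other lists passed, and the values above 0 all came from leaving out 2lox/2lox heart 3. The number of kinase probe sets whose groups do not overlap was 4 with all hearts and 4 to 15 with a heart left out. The 15, or 41.7%, came without 2lox/2lox heart 3, when 19.8% of all probe sets did not overlap, and the other counts were 4 to 6 beside 8.16% to 11.6% of all. Without 2lox/2lox hearts 1 and 2 together the number was 8, or 22.2%, below the 30.5% of all probe sets. With the replicate number as a block, which left 2 residual degrees of freedom, 0 probe sets of the whole array passed. Deviations of same-numbered hearts correlated at 0.01, -0.08 and -0.05 over all probe sets, so the numbers were not taken as pairs.

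The direction of the brightest probe set turned for 7 of the 9 genes with the 3′ minus 5′ covariate, where the log2 differences were 0.028 for *Csnk1a1*, 0.00097 for *Csnk1d*, -0.031 for *Csnk1e*, -0.0039 for *Csnk1g2*, -0.0034 for *Csnk2a1*, -0.017 for *Csnk2a2* and -0.077 for *Gsk3a*. The largest value that turned was that of *Csnk2a2*, 0.15 with no covariate. Averaged over their probe sets, *Csnk1a1* had 0.17, *Csnk1d* 0.0050 and *Csnk1g3* -0.13. With each heart left out in turn, *Csnk1a1* had -0.061 to 0.015, *Csnk1e* -0.024 to 0.059 and *Csnk1g3* -0.019 to 0.053. *Gsk3b* 1439949_at ranged from 0.37 to 0.70. Under quantile normalization the direction of 0 of the 36 kinase probe sets turned.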
